A study of Homo sapiens with 24 samples.

Results

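NRF2, the transcription factor encoded by NFE2L2, and KEAP1, its inhibitor, were followed together with 7 genes that NRF2 is known to switch on. The 7 targets were GCLC, GCLM, TXNRD1, SRXN1, NQO1, AKR1C1 and AKR1B10. The 9 genes were taken by name from the 21386 Ensembl identifiers in the count tables, and all 9 were found. Their levels were compared between the human melanoma line A375 and the human lung adenocarcinoma line A549, across the A375 groups, and in A549 against the count of MCM7.

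The study depleted MCM7, a subunit of the replicative helicase, in cells held at the G1/S boundary by a thymidine block, and every group carried that block. Each line had 4 groups of 3 biological replicates, 24 libraries in all. The shMCM7 Dox and shMCM7 noDox groups were cells with a Dox-inducible shRNA against MCM7 (vector pRSIT17), the former given Dox at 1 μg/ml and the latter none, and both were collected after 72 hours. The parental Dox and parental noDox groups were untransduced cells handled in the same way. A single shRNA was used, and no library of cells with a non-targeting shRNA was analysed here. RNA was measured by sequencing, and levels are given as CPM, which are counts scaled to the library total.

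In unstressed cells KEAP1 and the CUL3 ligase keep NRF2 short-lived. Oxidants and electrophiles modify KEAP1, NRF2 then accumulates, pairs with small MAF proteins (MAFF, MAFG, MAFK) and binds antioxidant response elements, while BACH1 competes for the same elements as a repressor. NRF2 is controlled mainly through its protein, which RNA counts do not show. A549 is known to carry an inactivating KEAP1 mutation and to have high NRF2 activity.

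Depth was 146656792 to 283721575 counts per library in A375 and 17911338 to 23452823 in A549, so that 3 counts stood at 0.0106 to 0.0205 CPM and at 0.128 to 0.167 CPM, respectively. These floors cover counting error only. The melanoma marker list summed to 726 to 949 CPM in A375 and 38.0 to 52.5 CPM in A549, with MLANA, TYR and DCT under 1 CPM in A375. The lung epithelial list summed to 278 to 467 CPM in A375 and 3654 to 5265 CPM in A549, with NKX2-1, SFTPB and SFTPC under 1 CPM in A549. MCM7 was at 75.8 to 77.6 CPM in A375 shMCM7 Dox and at 346 to 363 CPM in the parental groups, and fell with Dox in shMCM7 cells (log2 fold change -1.87 ± 0.30 SE, FDR 0.0012). The uninduced library shMCM7 noDox replicate 1 had 132 CPM of MCM7, against 353 and 359 CPM in replicates 2 and 3. In A549 the libraries labelled shMCM7 Dox 3, shMCM7 noDox 2 and parental noDox 2 had 95.2, 97.8 and 88.1 CPM, while the other 9 had 301 to 341 CPM. The MCM7 counts therefore go against the A549 labels, and comparisons by label in A549 are given for the libraries as labelled.

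All 9 are protein coding genes, placed here on GRCh38 with the GENCODE 29 annotation. NFE2L2 (ENSG00000116044) lies at chr2:177227595-177392697 on the minus strand and KEAP1 (ENSG00000079999) at chr19:10486120-10503741, also minus. The glutathione genes are GCLC (ENSG00000001084), chr6:53497341-53616970, and GCLM (ENSG00000023909), chr1:93885205-93909456, both minus. TXNRD1 (ENSG00000198431) is at chr12:104215779-104350305 on the plus strand and SRXN1 (ENSG00000271303) at chr20:646615-653370, minus. NQO1 (ENSG00000181019) is at chr16:69706996-69726951, minus, AKR1C1 (ENSG00000187134) at chr10:4963253-4983283, plus, and AKR1B10 (ENSG00000198074) at chr7:134527592-134541408, plus. NFE2L2 shares 13.2% of its 50-base stretches with AC019080.1, an overlapping gene on the same strand with no counts in the tables, while KEAP1 and TXNRD1 share none with another gene.

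Promoter sequences were read from RefSeq (GRCh38.p14), from 250 bases before to 50 bases after each start site, for 8 of the 9 genes. AKR1B10 had no entry. The windows were searched on both strands for TGACNNNGC, the core of the antioxidant response element, in which N is any base. Of the 11 windows of these genes 4 held the core (36.4%), against 4687 of all 35116 windows (13.3%). No core was found in the windows of NFE2L2, GCLC, SRXN1, NQO1 and AKR1C1 or at the first KEAP1 start site, which says only that these letters are not in those 300 bases. The 4 windows that hold the core are shown, 5′ to 3′ on the gene's strand, because they are where these genes carry the letters by which NRF2 is known to bind. Capitals mark the core.
KEAP1, start site 2, chr19:10502722-10503021, minus strand: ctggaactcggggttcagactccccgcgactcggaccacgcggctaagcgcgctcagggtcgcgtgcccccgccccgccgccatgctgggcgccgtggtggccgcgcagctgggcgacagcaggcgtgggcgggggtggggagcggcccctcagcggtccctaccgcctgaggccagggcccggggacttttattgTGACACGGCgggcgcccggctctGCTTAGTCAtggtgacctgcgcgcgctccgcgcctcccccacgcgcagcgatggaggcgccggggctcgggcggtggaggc
GCLM, chr1:93909381-93909680, minus strand: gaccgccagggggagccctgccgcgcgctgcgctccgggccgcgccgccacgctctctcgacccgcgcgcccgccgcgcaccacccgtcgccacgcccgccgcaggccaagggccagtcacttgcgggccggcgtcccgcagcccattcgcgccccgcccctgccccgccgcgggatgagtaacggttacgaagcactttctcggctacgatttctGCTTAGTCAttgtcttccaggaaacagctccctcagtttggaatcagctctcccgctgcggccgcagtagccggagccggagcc
TXNRD1, start site 1, chr12:104215529-104215828, plus strand: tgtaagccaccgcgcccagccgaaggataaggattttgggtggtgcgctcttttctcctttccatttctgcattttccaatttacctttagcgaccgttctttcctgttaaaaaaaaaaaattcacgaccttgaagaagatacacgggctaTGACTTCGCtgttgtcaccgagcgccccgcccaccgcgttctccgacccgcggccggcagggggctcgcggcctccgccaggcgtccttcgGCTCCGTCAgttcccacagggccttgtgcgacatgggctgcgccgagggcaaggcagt
TXNRD1, start site 2, chr12:104286782-104287081, plus strand: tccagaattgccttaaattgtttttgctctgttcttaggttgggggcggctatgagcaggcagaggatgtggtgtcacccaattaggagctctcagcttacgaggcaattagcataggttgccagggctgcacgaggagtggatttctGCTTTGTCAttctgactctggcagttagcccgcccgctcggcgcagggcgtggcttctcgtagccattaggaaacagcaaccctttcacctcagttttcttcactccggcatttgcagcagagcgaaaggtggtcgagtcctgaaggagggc
The KEAP1 window held TGACACGGC and GCTTAGTCA, which begin 54 and 31 bases before the start site. GCLM held GCTTAGTCA, the core read on the other strand, 34 bases before its start. In TXNRD1 the matches were TGACTTCGC and GCTCCGTCA, 99 and 8 bases before start site 1, and GCTTTGTCA, 102 bases before start site 2. A match is a description of the sequence and not a measured binding site.

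Between the lines, all 7 targets were lower in A375 than in A549, by 2.83-fold (NQO1) to 7059-fold (AKR1B10). Calls needed a change of 1.5-fold or more, p under 0.01 and a Benjamini-Hochberg FDR under 0.05 in edgeR's quasi-likelihood test. By that rule 8 of the 9 genes were lower in A375, against 27.6% of the 16305 genes tested (60.6% were called in either direction). The median log2 fold change, A375 minus A549, was -2.23 for the 9 genes and 0.09 for all genes tested. Cell line and depth cannot be told apart in this comparison.

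Of the regulators, NFE2L2 lay between 68.7 and 97.1 CPM in A375 (median 89.4) and between 109 and 155 CPM in A549 (median 130). The ranges did not touch, and NFE2L2 was 1.56-fold lower in A375 (log2 fold change -0.64 ± 0.049 SE, FDR 5.65e-11). That call rests on the threshold of 1.5-fold: without the 3 A549 libraries under 150 CPM of MCM7 the value was -0.57, and with library totals in place of TMM factors it was also -0.57. KEAP1 lay between 65.4 and 114 CPM in A375 (median 102) and between 44.3 and 90.4 CPM in A549 (median 74.3). Its ranges overlapped, and at a log2 fold change of 0.37 ± 0.085 (FDR 0.0004) KEAP1 was not called.

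GCLC and GCLM encode the catalytic and modifier subunits of glutamate-cysteine ligase, which makes the precursor of glutathione. GCLC was at 32.2 to 42.0 CPM in A375 and 154 to 193 CPM in A549, a log2 fold change of -2.26 ± 0.042 (FDR 2.03e-21). GCLM was at 37.1 to 65.5 CPM in A375 and 222 to 300.5 CPM in A549 (-2.34 ± 0.067, FDR 2.72e-18). Both subunits were thus about equally lower in A375, by 4.78-fold and 5.07-fold.

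TXNRD1, the cytosolic thioredoxin reductase, was at 498 to 700.4 CPM in A375 and 1816 to 2525 CPM in A549 (-1.81 ± 0.060, FDR 3.54e-17). SRXN1, the sulfiredoxin that repairs overoxidised peroxiredoxins, was at 98 to 132 CPM in A375 and 436 to 702 CPM in A549 (-2.23 ± 0.072, FDR 1.99e-17). SRXN1 shares 2292 exon bases with AL121758.1 on the same strand, and AL121758.1 had almost the same level in every library (for example 106.0 CPM beside 106.6 CPM in A375 shMCM7 Dox replicate 1). The SRXN1 value therefore belongs to both annotated genes.

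NQO1, AKR1C1 and AKR1B10 encode enzymes that reduce quinones, ketosteroids and reactive carbonyls, and the aldo-keto reductases held the widest gaps between the lines. NQO1 was at 550 to 788 CPM in A375 and 1643 to 1852 CPM in A549 (-1.499 ± 0.042, FDR 2.11e-18). AKR1C1 was at 5.30 to 9.68 CPM in A375 and 401 to 710.0 CPM in A549 (-6.24 ± 0.11, FDR 7.72e-22). AKR1B10 was at 0.375 to 1.07 CPM in A375, from 59 to 248 counts a library, and 3050 to 4260.4 CPM in A549 (-12.79 ± 0.11, FDR 5.59e-26). In A375 AKR1B10 was thus above the floor of 3 counts in every library. AKR1C1 shares 28.3% of its 50-base stretches with AKR1C2, so that reads could be split between them. AKR1B10 shares 9.69% with AKR1B15.

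**Figure D1:**
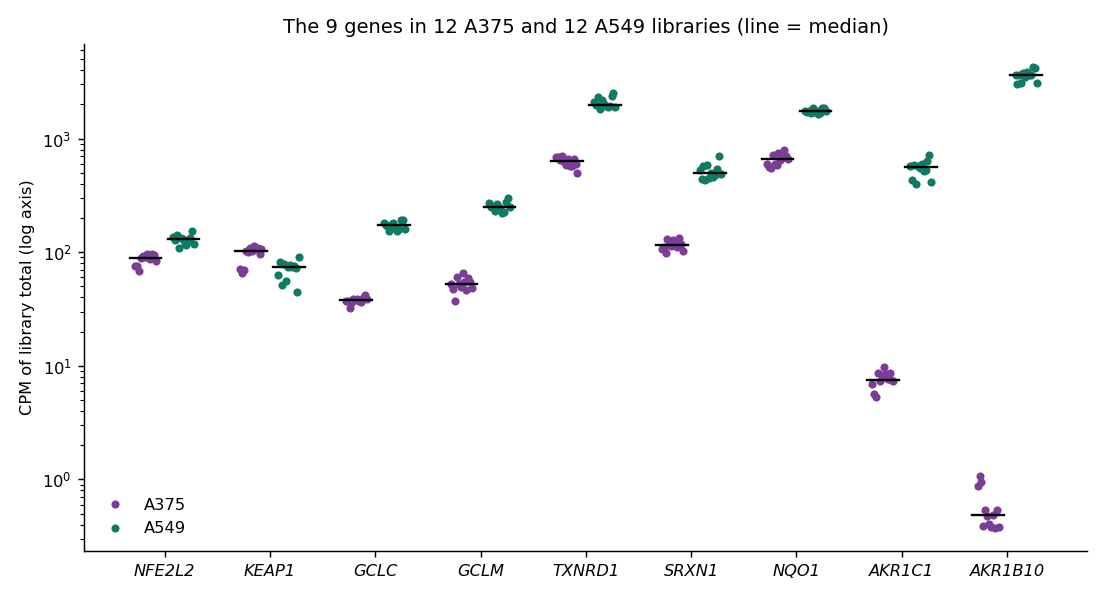
Level of each gene in the 12 A375 and 12 A549 libraries, in CPM of the library total on a log axis; each point is a library and each line the median of a cell line. The points of the lines overlap for KEAP1 and for no other gene, and AKR1B10 runs from 0.375 to 1.07 CPM in A375 and from 3050 to 4260.4 CPM in A549.

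To set the genes side by side, CPM was divided by exon length in kb. In A549 the order of the median levels was AKR1B10 (2079 CPM per kb), NQO1 (534), TXNRD1 (297), SRXN1 (183), AKR1C1 (63.7), GCLM (46.1), NFE2L2 (21.7), GCLC (19.9) and KEAP1 (19.7). AKR1C1 and GCLM overlapped over the libraries, as did NFE2L2, GCLC and KEAP1. In A375 the order was NQO1 (201 CPM per kb), TXNRD1 (94.8), SRXN1 (42.6), KEAP1 (27), NFE2L2 (14.9), GCLM (9.69), GCLC (4.38), AKR1C1 (0.861) and AKR1B10 (0.277). There NFE2L2 overlapped GCLM, and AKR1C1 overlapped AKR1B10. AKR1B10 thus stood first of the 9 in A549 and last in A375, while NQO1, TXNRD1 and SRXN1 kept their order relative to each other.

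Among 62 further genes of the pathway, 61 could be tested between the lines, and 46 were lower in A375 and 3 higher. Of all 16305 genes tested, 4500 were lower (27.6%) and 5381 higher. The median log2 fold change of these genes was -1.81. All 6 NADPH-producing enzymes and all 7 heme and iron genes were lower in A375, as were 12 of 13 quinone and carbonyl enzymes, 4 of 5 efflux pumps, 6 of 6 other targets, 6 of 12 glutathione genes and 2 of 3 thioredoxin genes. Examples were PGD, which makes NADPH in the pentose phosphate pathway (-2.70), HMOX1, the heme oxygenase (-3.99), GSR, the glutathione reductase (-2.98), ABCC3 (-4.02) and NR0B1 (-5.43). Some enzymes were near the floor in A375: ALDH3A1 had 2 to 10 counts a library there and 1194 to 3118 CPM in A549, UGT1A6 had 0 to 8 counts and 33.3 to 80.5 CPM, and GPX2 had 5 to 27 counts and 225 to 448 CPM. ALDH3A1 and UGT1A6 were too low to be tested within A375 and entered the line comparison through their A549 counts. They could only be called lower in A375, so their part in the 12 of 13 and the 46 was fixed in advance. PIR, lower at -0.66, was at -0.49 without the 3 A549 libraries under 150 CPM of MCM7.

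The regulators of the list did not move as a block. CUL3 (-1.02, FDR 4.86e-16), SQSTM1, the autophagy receptor that binds KEAP1 (-1.13, FDR 9.01e-15) and MAFK (-1.16, FDR 4.36e-09) were lower in A375. MAFF, at 17.0 to 31.3 CPM in A375 and 2.59 to 5.90 CPM in A549, was higher (2.38, FDR 3.17e-16). GSTM2 (0.84) and GSTM3 (1.04), glutathione transferases, were the other two higher in A375. BACH1 (0.32), MAFG (-0.46) and NFE2L1 (0.27) were not called.

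In A375, MCM7 depletion was tested in shMCM7 cells with Dox against without, with the parental groups as controls for Dox and for the transduction. KEAP1, the inhibitor, fell 1.504-fold. Of the 7 targets, AKR1B10 rose 2.04-fold from a level under 1 CPM and the other 6 were not called. The values of 5 targets were negative and those of 2 positive. Of the 16087 genes tested, 12% were called, 6.45% lower and 5.58% higher, and a single gene of 9 was called in each direction. In a test against a change of 1.5-fold (glmTreat) neither KEAP1 (FDR 1) nor AKR1B10 (FDR 0.0859) was called. The median log2 fold change was -0.20 for the 9 genes and 0.00 for all genes tested.

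KEAP1 was at 71.5, 65.4 and 69.8 CPM in shMCM7 Dox, against 102, 101 and 108 CPM in shMCM7 noDox. Parental cells had 102, 114 and 107 CPM with Dox and 109, 96.8 and 107 CPM without it. The 3 depleted libraries lay below all 9 others, the uninduced library with 132 CPM of MCM7 (102 CPM of KEAP1) among them. The log2 fold change was -0.59 ± 0.054 (FDR 7.73e-05). It lay just past the threshold, and without shMCM7 Dox replicate 2 (-0.56) or shMCM7 noDox replicate 3 (-0.55) KEAP1 fell short of a 1.5-fold change.

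NFE2L2 was at 75.1, 76.2 and 68.7 CPM in shMCM7 Dox and 89.3, 92.9 and 91.5 CPM in shMCM7 noDox. In parental cells it was at 97.1, 89.5 and 86.4 CPM with Dox and 96.8, 95.2 and 84.3 CPM without. The depleted libraries were again below all 9 others. At -0.31 ± 0.055 (FDR 0.0017) the difference passed the FDR but not the fold threshold, and NFE2L2 was not called. The transcripts of the factor and of its inhibitor were thus both lower in depleted cells, by 1.24-fold and 1.504-fold.

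Neither glutamate-cysteine ligase subunit was called. GCLC was at 35.4 ± 2.76 CPM in shMCM7 Dox and 37.7 ± 1.60 CPM in shMCM7 noDox (SD, n = 3 each; log2 fold change -0.09, 95% confidence interval -0.25 to 0.06, edgeR FDR 0.296). GCLM was at 45.7 ± 7.86 and 54.3 ± 5.54 CPM (SD, n = 3 each; -0.25, interval -0.51 to 0.01, edgeR FDR 0.111). GCLM was lower with Dox in all 3 same-numbered pairs, and its FDR was 0.0058 with the replicate number as a block and 0.035 without shMCM7 Dox replicate 1 (-0.35), at under 1.5-fold in both. Without shMCM7 Dox replicate 3, GCLC was at -0.03 and GCLM at -0.12, and without shMCM7 noDox replicate 1 GCLM was at -0.17.

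TXNRD1 was at 680 ± 23.4 CPM with Dox and 634 ± 59.9 CPM without (SD, n = 3 each; 0.10, interval -0.06 to 0.26, edgeR FDR 0.279). SRXN1 was at 106.6, 110.6 and 98 CPM with Dox and 131, 116 and 114 CPM without. Its depleted libraries lay below the uninduced ones and below parental Dox, and overlapped parental noDox (103 to 132 CPM). The log2 fold change of -0.20 ± 0.069 (FDR 0.0411) was not called. NQO1 was at 569 ± 23.7 and 633 ± 69.8 CPM (SD, n = 3 each; -0.15, interval -0.33 to 0.02, edgeR FDR 0.135). Without shMCM7 noDox replicate 1, the uninduced library with low MCM7, NQO1 was at -0.06 and TXNRD1 at 0.18, and without shMCM7 noDox replicate 3 TXNRD1 was at 0.05.

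The aldo-keto reductases went in opposite directions. AKR1C1, which reduces ketosteroids, was at 6.85, 5.61 and 5.30 CPM in shMCM7 Dox and 8.65, 7.40 and 8.22 CPM in shMCM7 noDox. The depleted libraries were below all 9 others (7.38 to 9.68 CPM), and the log2 fold change was -0.45 ± 0.11 (FDR 0.0082), under the fold threshold. AKR1B10 was at 0.874, 1.07 and 0.940 CPM in shMCM7 Dox, from 199 to 248 counts, and at 0.389, 0.543 and 0.478 CPM in shMCM7 noDox, from 86 to 122 counts. All 3 depleted libraries were above the 9 others (0.375 to 0.543 CPM). The log2 fold change was 1.03 ± 0.17 (FDR 0.0014), and it was 0.97 with a prior count of 10 and 0.91 to 1.15 with a library left out. AKR1B15, with which AKR1B10 shares sequence, had 16 to 35 counts with Dox and 4 to 16 without, and was not called (0.96 ± 0.43, FDR 0.0969).

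At an FDR under 0.05 with no fold threshold, NFE2L2, KEAP1, SRXN1 and AKR1C1 were lower and AKR1B10 higher. That is 4 of 9 lower against 22.4% of all genes tested, and 1 of 9 higher against 20.6%. By library, 3 of the 9 genes lay below and 1 above the 9 other A375 libraries, against 23.3% and 20.2% of the 12536 genes with at least 10 counts in all 24 libraries.

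**Figure D2:**
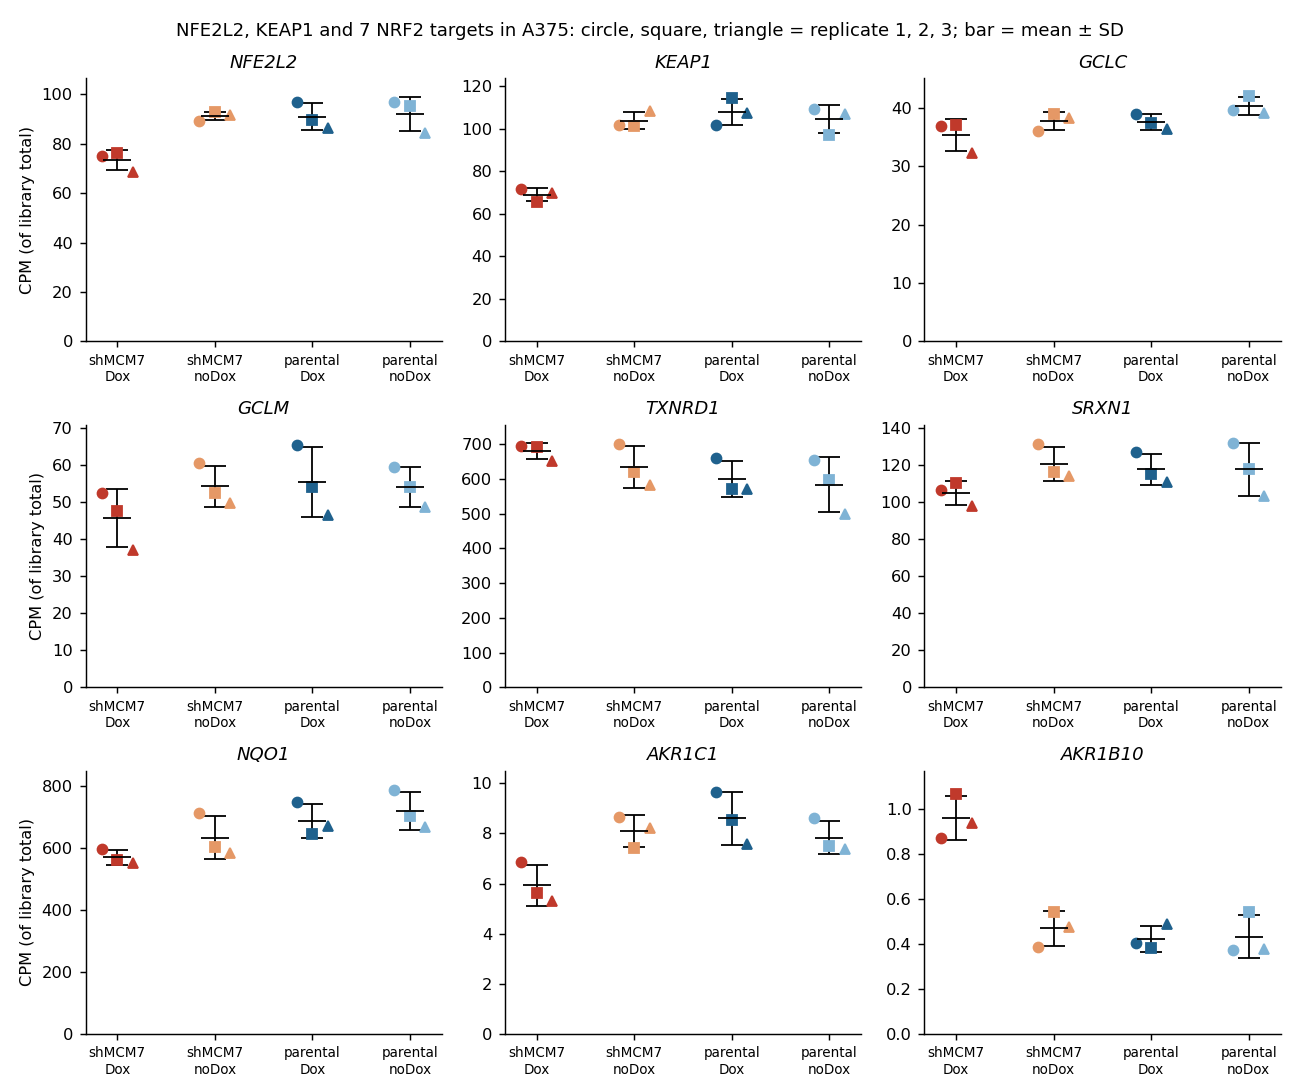
Level of the 9 genes in the 4 A375 groups, in CPM of the library total from 0; symbols are the 3 replicates, the wide bar the mean and the whiskers ± 1 SD. The shMCM7 Dox libraries of NFE2L2, KEAP1 and AKR1C1 lie below and those of AKR1B10 above the 9 other libraries, and the other 5 genes overlap.

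Dox itself was tested in parental cells. No gene was called in edgeR among 15993 tested (0%; 1121 had an unadjusted p under 0.05, and DESeq2 called 2), and the 9 genes lay between -0.08 and 0.15 on the log2 scale. Uninduced shMCM7 cells were compared with parental cells without Dox, and the 9 genes lay between -0.18 and 0.13, with none called against 1.65% of all genes tested. That fit left out the replicate number, by which these libraries deviated together. Blocking on the number raised the count from 266 to 484 genes, again with none of the 9.

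The Dox effect in shMCM7 cells was then compared with that in parental cells in a single fit, which takes account of Dox without the shRNA. KEAP1 was lower (-0.66 ± 0.083, FDR 9.53e-05), AKR1C1 was lower (-0.60 ± 0.16, FDR 0.0119) and AKR1B10 was higher (1.04 ± 0.27, FDR 0.0109). These were 2 of 9 lower, against 6.17% of all genes, and 1 of 9 higher, against 4.37%. In the test against a change of 1.5-fold none of the 3 was called (FDR 0.841 for KEAP1, 1 for AKR1C1 and 0.34 for AKR1B10). The AKR1C1 call fell short of 1.5-fold with library totals (-0.58) and when shMCM7 Dox replicate 2 or 3, shMCM7 noDox replicate 1, parental Dox replicate 1 or parental noDox replicate 2 or 3 was left out (-0.57 to -0.50). NFE2L2 differed by -0.32 ± 0.092 (FDR 0.0192) and was not called. For the remaining 5 genes the difference lay between -0.30 and 0.04.

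Depleted shMCM7 Dox cells were also set against parental Dox cells, a comparison that shares the depleted libraries with the test of the knockdown. KEAP1 fell by 0.65 ± 0.059 on the log2 scale (FDR 3.56e-05) and AKR1B10 rose by 1.16 ± 0.16 (FDR 0.0004). That was 1 of 9 in each direction, against 8.39% of genes lower and 7.64% higher. In the test against a change of 1.5-fold AKR1B10 was called and KEAP1 was not (FDR 0.349). AKR1C1 (-0.55, FDR 0.0051), NFE2L2 (-0.32, FDR 0.0034) and NQO1 (-0.28, FDR 0.0077) were under 1.5-fold, and AKR1C1 passed it without shMCM7 Dox replicate 1 (-0.66) or parental Dox replicate 3 (-0.63).

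**Figure D3:**
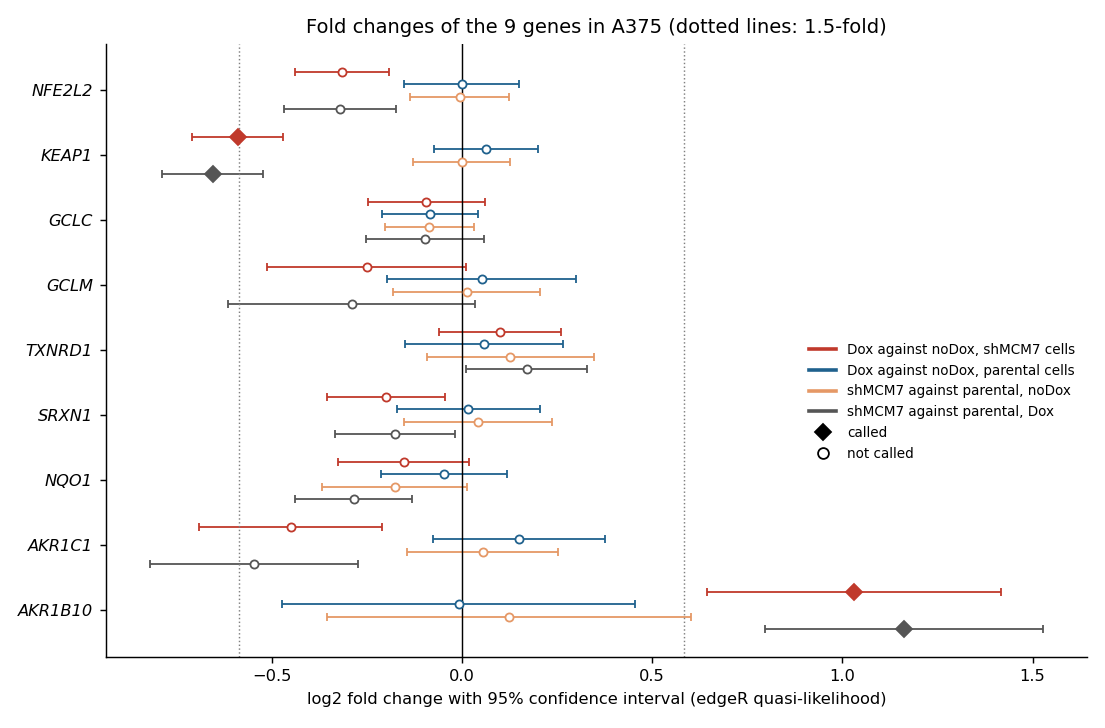
Log2 fold changes of the 9 genes in 4 A375 comparisons, with 95% confidence intervals from edgeR; filled diamonds passed all thresholds, and dotted lines mark 1.5-fold. The values of Dox in parental cells and of uninduced against parental cells lie between -0.18 and 0.15, and KEAP1 and AKR1B10 pass in both comparisons that hold the depleted cells.

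Of the 62 further pathway genes, 59 could be tested after MCM7 depletion in A375, and 4 rose and 2 fell, against the 5.58% and 6.45% given above. Their median log2 fold change was -0.07. The groups differed in the sign of their values. All 12 tested glutathione genes had negative values (median -0.15) and none was called, while all 5 efflux pumps had positive values (median 0.31) and ABCC3, an exporter of conjugated compounds, rose. Of these, 3 glutathione genes and 4 efflux pumps had an FDR under 0.05. The 3 thioredoxin genes were also negative, and the other groups held both signs. Over all 16087 genes tested, 8136 values were positive and 7951 negative. The difference between groups was not tested. At an FDR under 0.05 with no fold threshold, 14 of 59 were higher and 14 lower, which is close to the 20.6% and 22.4% of all genes tested.

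Of the 9 regulators on the list, 4 were higher and 1 lower at an FDR under 0.05. MAFK was at 67.2, 43.2 and 49.4 CPM in shMCM7 Dox and 38.6, 34.1 and 31.4 CPM in shMCM7 noDox, and rose (0.62 ± 0.14, FDR 0.0064). It fell short of 1.5-fold without shMCM7 Dox replicate 1 (0.43) or shMCM7 noDox replicate 3 (0.56). BACH1 was at 41.2, 46.9 and 43.0 CPM with Dox and 31.3, 30.2 and 31.9 CPM without. Its depleted libraries were above all 9 others, and the value of 0.49 ± 0.065 (FDR 0.0004) was under 1.5-fold. MAFF (0.34, FDR 0.0322) and MAFG (0.22, FDR 0.0096) were also under it, and NFE2L1 (0.13, FDR 0.0621), CUL3 (0.07, FDR 0.297) and SQSTM1 (-0.15, FDR 0.122) did not pass the FDR.

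Among the enzymes, EPHX1, the microsomal epoxide hydrolase, fell (-0.82 ± 0.054, FDR 3.04e-05), from 37.5 to 38.4 CPM in shMCM7 noDox to 20.8 to 22.5 CPM in shMCM7 Dox. CYP4F3, a fatty acid and leukotriene hydroxylase, rose (1.32 ± 0.19, FDR 0.0006), from 0.403 to 0.565 CPM to 1.10 to 1.499 CPM. ABCC3 went from 26.4 to 27.1 CPM to 42.1 to 49.4 CPM (0.76 ± 0.063, FDR 5.87e-05). OSGIN1 fell (-0.74 ± 0.16, FDR 0.0047) but was at -0.55 without shMCM7 noDox replicate 1. NR0B1 rose (0.64 ± 0.19, FDR 0.0243), a call lost when shMCM7 Dox replicate 1 (0.48) or 3 (0.62) or shMCM7 noDox replicate 1 (0.57) or 2 (0.56) was left out, and with library totals (0.64). HMOX1, named after its values were seen, was at 20.6 to 25.2 CPM with Dox and 20.3 to 36.7 CPM without, and was not called (-0.20, FDR 0.44).

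The paralogs of AKR1C1 were looked at after their values were seen. AKR1C2 was at 23.1 to 27.3 CPM with Dox and 31.8 to 36.8 CPM without (-0.43 ± 0.081, FDR 0.0025). AKR1C3 was at 22.3 to 25.4 CPM with Dox and 15.99 to 19.2 CPM without (0.45 ± 0.080, FDR 0.0019). None of the 3 paralogs was called, and AKR1C1 and AKR1C2, which share sequence, were lower while AKR1C3 was higher. AKR1B1, the aldose reductase, was lower as well (-0.46 ± 0.056, FDR 0.0003, not called).

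In the comparison of the Dox effect between shMCM7 and parental cells, MAFK (0.82, FDR 0.0038), CYP4F3 (1.42, FDR 0.0038) and ABCC3 (0.70, FDR 0.0002) were higher. EPHX1 (-0.94, FDR 1.57e-05), AKR1C2 (-0.59, FDR 0.0009) and IDH1, which makes NADPH (-0.59, FDR 5.30e-05), were lower. That was 3 of 59 genes higher and 3 lower, against 4.37% and 6.17% of all genes tested. AKR1C2 and IDH1 were lost with library totals (-0.57 each). With a library left out, AKR1C2 fell short in 6 of 12 fits and IDH1 in 5 of 12, as given among the limits. Of the 59 genes, MAFK, AKR1B15, CYP4F3 and ABCC3 were higher and AKR1C2, CBR3, EPHX1, IDH1 and OSGIN1 lower in depleted against parental Dox cells. That was 4 of 59 higher and 5 lower, against 7.64% and 8.39% of all genes tested. AKR1B15 was at 0.0678 to 0.123 CPM in the depleted libraries and was not called after knockdown.

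**Figure D4:**
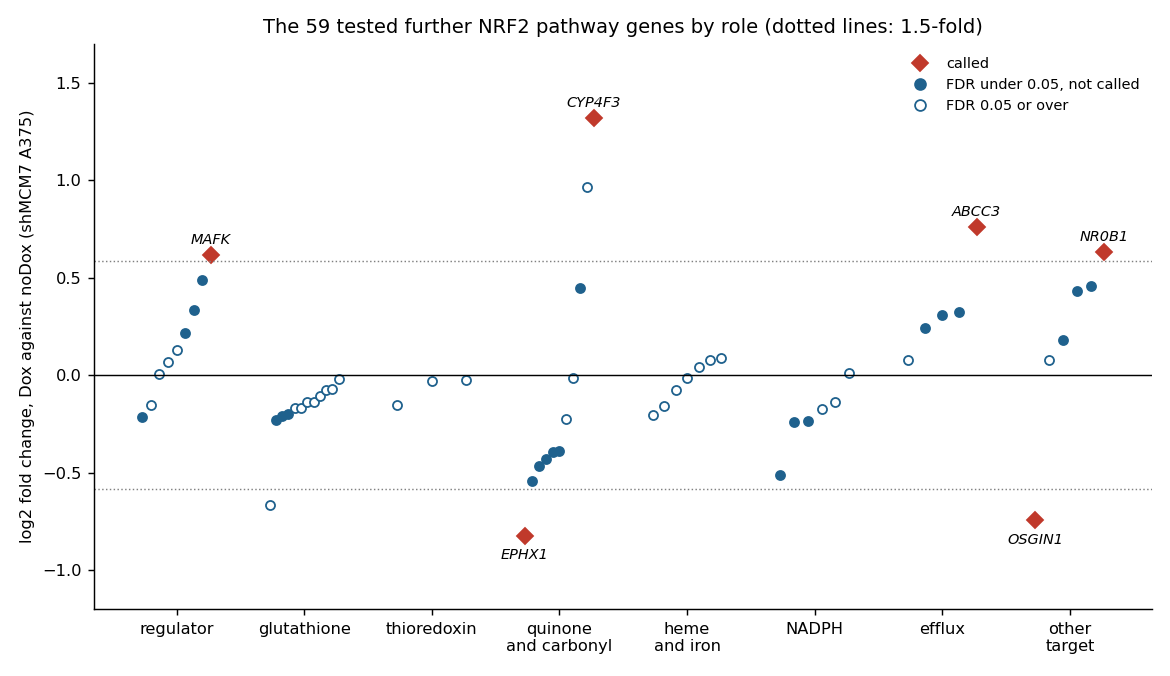
Log2 fold change of Dox against noDox in A375 shMCM7 cells for the 59 tested further genes of the pathway, sorted within each role; diamonds passed all thresholds, filled circles had an FDR under 0.05 without a call, and dotted lines mark 1.5-fold. The 12 glutathione genes lie below 0 and the 5 efflux pumps above it, and 6 genes are called.

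In A549 the comparisons by label gave no call. Dox against noDox in cells labelled shMCM7 called none of 13550 genes in edgeR (0%; 61 had an unadjusted p under 0.05, and DESeq2 called 0), and the 9 genes lay between -0.11 and 0.10. In cells labelled parental none of 13494 genes was called in edgeR (0%; 1137 had an unadjusted p under 0.05, and DESeq2 called 9), and the 9 genes lay between -0.28 and 0.14. Without parental noDox replicate 3 the latter comparison called 300 genes, and again none of the 9. Libraries with low and with high MCM7 stand within the same labelled groups, so these tests do not compare depleted with undepleted cells.

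The A549 libraries were therefore set out by their MCM7 count, as ranges and with no test, because the count is a measured value and not a label. The 3 libraries under 150 CPM of MCM7 had KEAP1 at 51.1 (labelled shMCM7 Dox 3), 55.7 (shMCM7 noDox 2) and 44.3 CPM (parental noDox 2). The 9 libraries over 250 CPM had 62.5 to 90.4 CPM, with a median of 76.1 CPM, so the ranges did not overlap. Over the 12877 genes with at least 10 counts in every A549 library, the 3 libraries lay below the 9 for 20.8% and above them for 19%. KEAP1 was 1 of 9 below.

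SRXN1 was the 1 of 9 above, at 575, 583 and 702 CPM in the 3 libraries and 436 to 545 CPM in the 9. NFE2L2 was at 141, 133 and 155 CPM in the 3 and at 109 to 135 CPM in the 9, an overlap by a single library that ended with TMM-scaled values, where NFE2L2 lay above. GCLC (170.0 to 190.3 against 154 to 193 CPM), GCLM (254 to 300.5 against 222 to 278 CPM) and TXNRD1 (2203 to 2525 against 1816 to 2352 CPM) overlapped. So did NQO1 (1736 to 1852 against 1643 to 1848 CPM), AKR1C1 (568 to 710.0 against 401 to 634 CPM) and AKR1B10 (3627 to 4215 against 3050 to 4260.4 CPM). The medians of the 9 libraries were 125 CPM for NFE2L2, 163 for GCLC, 249 for GCLM and 1941 for TXNRD1. They were 1712 for NQO1, 526 for AKR1C1 and 3589 for AKR1B10, and the 3 libraries lay above the median in each of these genes. The share of all genes for which this holds was not counted. These genes also varied together over the A549 libraries, so they are not separate observations. The ranges of AKR1B10, which was higher in the depleted A375 libraries, thus overlapped in A549.

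Of the 61 further pathway genes with at least 10 counts in every A549 library, the 3 libraries lay above the 9 for 17, below them for 3, and overlapped them for 41. Over all 12877 such genes they lay above for 19% and below for 20.8%, as given above. The pathway genes were thus above more often and below less often than all genes, a difference that was not tested. The genes named here were chosen after their values were seen. All 5 efflux pumps were above, among them ABCC1 (422 to 463 against 244 to 292 CPM) and ABCC3 (563 to 626 against 359 to 504 CPM). Among the regulators BACH1 (32.7 to 39.2 against 18.3 to 26.1 CPM), MAFG (146 to 155 against 111.0 to 139 CPM), NFE2L1 (316 to 333 against 247 to 280.1 CPM) and BTRC were above. So were 5 of 6 other targets, for example NR0B1 (47.4 to 54.7 against 27.2 to 32.6 CPM) and TRIM16L (441 to 471 against 240 to 276 CPM). ALDH3A1 (1194 to 1503 against 1940 to 3118 CPM), CBR1 (77.6 to 83.3 against 123 to 144 CPM) and GSS were below.

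The same layout was made for A375, where the 3 shMCM7 Dox libraries were set against the other 9. Of the 57 pathway genes with at least 10 counts in all 24 libraries, 13 lay above in A375 and 17 in A549, and 10 lay above in both, which is 76.9% of the first and 58.8% of the second. Over all 12536 such genes, 20.2% lay above in A375 and 19.2% in A549, so that the 13 in A375 (22.8%) were near the background, and the shares in both were 47.5% and 50.1%. The 10 genes were BACH1, MAFG, NFE2L1, FECH, ABCC1, ABCC2, ABCC3, TRIM16, TRIM16L and ABHD4. In A375, 12 of the 57 lay below (21.1%, against 23.3% of all genes), and none of these did in A549, where 45.1% of all genes below in A375 were also below. Of the 9 genes, KEAP1 alone lay below in both lines, as did 1316 of all 12536 genes. KEAP1 was 33.3% of the 3 genes of the 9 that lay below in A375, which is not above the 45.1% of all genes. Its place in both lines therefore does not set it apart from the background. These counts describe libraries and were not tested.

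The genes whose pattern was most like that of the targets were ranked by Pearson's r of log2 CPM with the mean z-score of the 7 targets, over the 12 libraries of each line. In A375 these were PARP8 (r = 0.93), AL121758.1 (0.93), BCAS2 (0.92), ABHD3 (0.91) and LANCL2 (0.91). AL121758.1 shares its reads with SRXN1, which is part of the score. Each target is itself part of the score, which raises its own r. The targets did not follow the score alike in A375. Its r was 0.95 with GCLM, 0.93 with SRXN1, 0.77 with NQO1, 0.74 with AKR1C1 and 0.62 with GCLC. With TXNRD1 it was 0.38 and with AKR1B10 -0.48. In A549 they were CRIPT, COL4A3BP, RPS7 and ZNF281 (0.96 each) and ERO1A (0.95). The lists have no gene in common. Over the A549 libraries the r of the 7 targets with their own score ran from 0.83 (AKR1B10) to 0.96 (TXNRD1). In A549 the libraries include the split by MCM7, and the values are a description.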

How the data were processed

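The authors sequenced RNA from thymidine-blocked A375 and A549 cells and deposited raw read counts per gene for each of 24 libraries. The submitters' processing notes name bcl2fastq 2.19, Trimmomatic, STAR 2.7.1, featureCounts, edgeR and GRCh38.p10. The annotation release, the strand setting and the treatment of reads that fit several genes are not given in the sources used here. Of 21386 identifiers, 21349 were found in GENCODE 29, used for names, positions and exon lengths. Counts were tested with edgeR 4.0.16 (R 4.3.3; TMM, filterByExpr, glmQLFit and glmQLFTest, prior count 0.125), fitting the groups compared, or all 24 libraries for the lines, where the 4 groups of each line were averaged. FDR values are Benjamini-Hochberg adjusted over all genes tested. The fits were tested on simulated data. The alternatives were DESeq2 1.42.0, its size factors, library totals, no filter, a stricter filter (10 counts or more in each library), glmTreat, a larger prior count (10), a dispersion from all libraries of a line, a replicate block, and leaving out libraries.

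The 9 genes and the gene lists were chosen with earlier results of these data known. Named throughout are these 9 genes, MCM7, BACH1, MAFF, MAFG, MAFK, SQSTM1, NFE2L1 and CUL3, and for the other pathway genes up to 4 per role and comparison with the largest change among those called, with examples by range where no test was made. Groups were taken from the labels. Same-numbered libraries of the uninduced and parental noDox groups deviated together (r = 0.34, 0.23 and 0.36), so the number may pair them. The reported fit of these groups left the number out, and the fit with it as a block is given as an alternative. No 2 replicates were identical (chi-square per degree of freedom 1.98 to 112 over 24 pairs). Depth limits the precision of low genes, given as counts in the text. A gene of the pathway list that entered the counts is not reported here by name.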

Additional observations from a re-analysis of the deposited data

Results flagged for a closer look

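In A375 the effect of Dox differed between shMCM7 and parental cells, by the test of the difference itself in edgeR's quasi-likelihood fit, for 3 of the 9 genes and 6 of the 59 further pathway genes tested. Of all 16334 genes tested, 4.37% were higher and 6.17% lower. The 6 further genes, 3 in each direction, were near these shares. Among the 9, the difference on the log2 scale was -0.66 for KEAP1, -0.60 for AKR1C1 and 1.04 for AKR1B10. None of the 3 was called in the test against a change of 1.5-fold.

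Among the further genes, the difference was 0.82 for MAFK, 1.42 for CYP4F3 and 0.70 for ABCC3. It was -0.94 for EPHX1, -0.59 for AKR1C2 and -0.59 for IDH1. Of these 6, EPHX1 was called in that test as well. No cause of these differences was tested.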

How the results depend on the processing

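In the 4 comparisons recomputed gene by gene (knockdown, difference of the Dox effects, depleted against parental Dox cells, and lines), the 9 genes kept their direction under the settings run, apart from GCLC and TXNRD1 in the difference, which stood near 0. GCLC turned to 0.0065 with library totals and lay between -0.046 and 0.049 with a library left out, and TXNRD1 lay between -0.054 and 0.15. The test against a 1.5-fold change (glmTreat) was the setting that removed most: it called 499 genes and 0 of the 9 after knockdown, 273 and 0 for the difference, 1274 and 1 for depleted against parental Dox cells, and 86 genes for uninduced against parental cells. With a library left out, 1 to 2 of the 9 were called after knockdown, 2 to 3 for the difference and 2 to 3 for depleted against parental Dox cells, and 173 to 321 genes for uninduced against parental cells (173 without parental noDox replicate 2, 177 without parental noDox replicate 3). For Dox in parental A375 cells, DESeq2 called 2 genes, the replicate block 12, and leaving out a library 0 to 1. In A549 cells labelled parental, DESeq2 called 9 genes, and leaving out a library gave 0 to 300. Without a library, IDH1 in the difference was between -0.63 and -0.56 and AKR1C2 between -0.65 and -0.52.

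The replicate block changed the count by over 1.5 times for Dox in parental cells (12 genes) and for uninduced against parental cells (484 genes), and called as many of the 9 as the fit without it in every comparison. Same-numbered libraries of the knockdown correlated at 0.27, 0.10 and 0.25, those of the parental groups at 0.23, 0.01 and 0.34, and those of A549 cells labelled shMCM7 at 0.20, -0.64 and -0.67. The paper's methods state no pairing, so the reported fits left the number out. Where libraries of the same number vary together, such fits can miss a difference. The GCLM knockdown value had an edgeR FDR of 0.111 without the block and 0.0058 with it. In the knockdown the mean r was nevertheless 0.20 for the same number. The mean of -0.10 for other numbers largely follows from that value, because each group was centred on its own mean. By MCM7 count in A549, 2 of the 9 did not overlap with CPM and 3 with TMM-scaled values. The highest value of the 9 for uninduced against parental cells was 0.32 without parental noDox replicate 2. The causes were not tested. Genes under 1 CPM, such as AKR1B10 in A375, are limited by counting error.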

Other observations

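Within the A375 groups, replicate 1 held the highest level of several target genes. The share of all genes for which this holds was not counted, so it is not shown to be a trait of the targets. GCLM, TXNRD1, NQO1 and AKR1C1 were highest in replicate 1 in 4 of 4 groups, and SRXN1 in 3 of 4, whereas NFE2L2 and KEAP1 were so in 2 of 4, GCLC in 1 of 4 (replicate 2 in 3 of 4) and AKR1B10 in 0 of 4. HMOX1 and SLC7A11, named after their values were seen, were also highest in replicate 1 in 4 of 4 groups. HMOX1 was at 36.7 CPM in replicate 1 of shMCM7 noDox against 20.3 and 20.8 CPM in the others, and at 39.4 against 20.9 and 19.1 CPM in parental noDox. For GCLM the levels in parental Dox were 65.5, 54.2 and 46.6 CPM. Replicate 1 of shMCM7 noDox is also the uninduced library with 132 CPM of MCM7, while replicate 1 of the parental groups had 353 to 363 CPM. Over all genes, too, replicate 1 differed more from replicates 2 and 3 than these did from each other in each A375 group. In shMCM7 Dox the chi-square per degree of freedom was 112 and 97.1 with replicate 1 and 51.9 without it. The cause was not tested.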
